A study of Mus musculus with 12 samples.

Results

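The transforming growth factor beta (TGF-β) pathway was followed in the mouse cecum through 9 genes picked by symbol, namely the ligands Tgfb1, Tgfb2, Tgfb3 and Inhba, the receptors Tgfbr1 and Tgfbr2, the latent-complex relative Ltbp2, and the targets Tgfbi and Smad7. They were found by their gene names among 37074 distinct names on the array and were covered by 16 of its 56605 non-control probes. The arrays came from a study of peritoneal adhesions, the fibrous bands that join organs after surgery. RNA of C57BL/6 cecum was labeled and hybridized to 1-color Agilent arrays, 12 in all and 3 per group. The groups were a sham operation with tissue taken at 0 h, and tissue taken 3, 12 and 72 h after the cecum was burned with bipolar forceps. All groups shared the strain and the tissue, and the labels name no age, drug, transgene or deletion for any of them. Since sham tissue was taken at 0 h only, the burn, the opening of the abdomen and the time that followed cannot be told apart. The study calls the arrays biological triplicates, while the labels do not name the animals. P-values therefore measure the spread between these samples.

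TGF-β ligands are made as long precursors and leave the cell bound to their own propeptide, which keeps them silent until proteases, integrins or thrombospondin free them. The free ligand joins type II and type I receptor kinases, which phosphorylate Smad2 and Smad3, and these carry the signal to genes of matrix, protease inhibitors and feedback. Activin A, the dimer of the Inhba product, uses other receptors but the same Smads. In wounded serosa the pathway is best known for collagen production and myofibroblast formation.

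Each value below is a scaled log2 level, which is log2 of the background-corrected intensity of a probe minus the 75th percentile of its array, so that 0 is the brightness of the 75th percentile. Levels of different probes are not comparable with each other. A difference was called when the fold change was above 2 and limma's adjusted p was below 0.05. Each gene was counted by its brightest probe, and for all 9 genes that probe was well above background on 12 of 12 arrays. On each array 60.2% to 65.2% of probes were well above background, none was saturated, and replicate arrays correlated between 0.985 and 0.992 across probes. The labels state male mice, yet Xist, the RNA of the inactive X chromosome, was well above background on 12 of 12 arrays. The Y-linked Ddx3y and Eif2s3y were so on 0 arrays, Uty on 1, and the brightest of 6 Kdm5d probes on 12. The pattern of Xist, Ddx3y and Eif2s3y was shared by all groups. The sham and 3 h arrays lay on slide 1 with 2 of the 12 h arrays, and the 72 h arrays lay on slide 2 with 12 h replicate 3, so that slide and the 72 h group are separable only through that array. Of the epithelial markers used to check the labelled tissue, 9 of 9 were well above background on every array.

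The probes show which part of a ligand each value reports. The brightest Tgfb1 probe lies at chr7:26489877-26489936 (mm9, plus strand) and the brightest Tgfb2 probe at chr1:188449333-188449392 (mm9, minus strand), and both code for the end of the mature growth factor, where the ligands are alike. Aligned without gaps, 28 of 41 bases were identical, shown in capitals, with the longest identical run at 7 bases.
Tgfb1, mature part: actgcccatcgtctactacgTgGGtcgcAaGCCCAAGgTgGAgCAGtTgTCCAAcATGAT
Tgfb2, mature part: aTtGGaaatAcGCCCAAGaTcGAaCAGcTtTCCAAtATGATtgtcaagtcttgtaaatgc
The other Tgfb1 probe, at chr7:26477408-26477467 (plus strand), reads the propeptide, and the Inhba probe, at chr13:16118634-16118693 (plus strand), reads the mature activin subunit.
Tgfb1, propeptide part: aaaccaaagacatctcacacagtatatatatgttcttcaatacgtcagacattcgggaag
Inhba, mature part: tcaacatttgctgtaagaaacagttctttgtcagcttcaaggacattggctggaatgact
Over all 110 pairs of probes of different members the longest identical run was 9 bases.

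Of the 9 genes, Inhba alone was called higher than sham at 3 h after cauterization, while Tgfb1, Tgfbi and Inhba were called higher both at 12 h and at 72 h. None of the 9 was called lower than sham at any time. Over all genes, 3.26%, 4.1% and 4.55% were called higher at 3, 12 and 72 h, and 4.11%, 4.96% and 4.3% were called lower. Among the members, 1, 3 and 3 of 9 were called higher, which is 11.1%, 33.3% and 33.3%. At 3, 12 and 72 h the median log2 difference of the members from sham was 0.14, 0.23 and 0.83, beside 0.08, -0.01 and -0.14 over all genes.

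**Figure D1:**
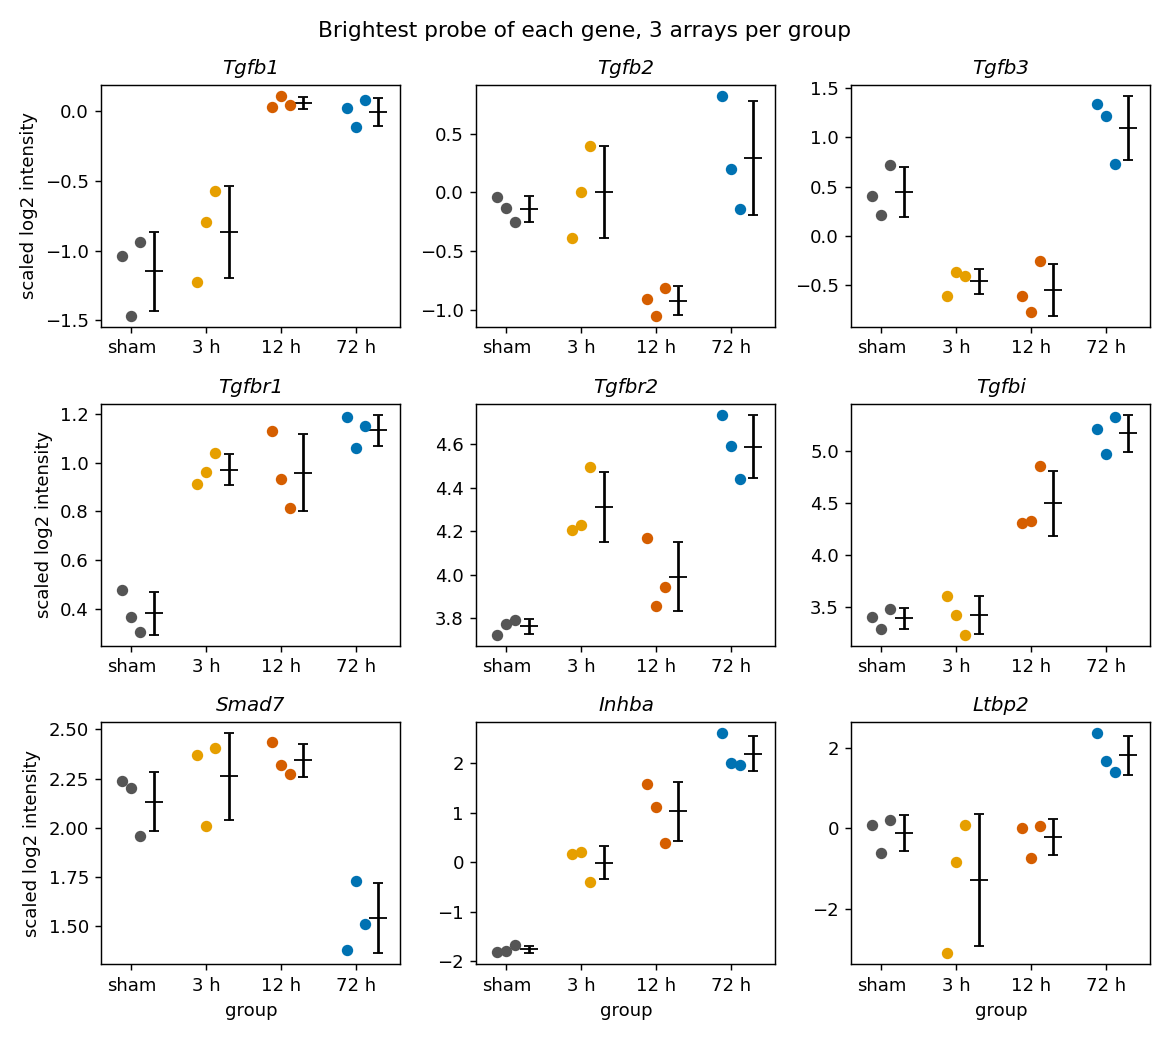
Scaled log2 intensity of the brightest probe of each of the 9 genes, with 1 point per array, 3 arrays per group, and the group mean with its SD beside the points. The vertical axes differ between panels. Inhba stood higher in each later group by mean, and Ltbp2 had 1 array at -3.11 at 3 h.

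Inhba codes for the subunit of activin A and had the largest differences from sham of the 9 genes at 3, 12 and 72 h. Its level was -1.81, -1.80 and -1.67 in sham cecum, 0.17, 0.20 and -0.40 in the 3 h group, 1.58, 1.11 and 0.40 in the 12 h group, and 2.60, 2.0 and 1.97 in the 72 h group. No array of any group overlapped with another group in this order, so that every 3 h array stood above sham, every 12 h array above 3 h and every 72 h array above 12 h. Against sham, Inhba was 3.37-fold higher at 3 h (log2 difference 1.75 ± 0.29 SE, adjusted p = 0.00287, n = 3 per group). It was 6.90-fold higher at 12 h (2.79 ± 0.29, adjusted p = 0.000171) and 15.4-fold higher at 72 h (3.95 ± 0.29, adjusted p = 3.21e-05). The rise from 3 h to 12 h, 2.05-fold, had an adjusted p of 0.0561 and was not called, though it was in 9 of 25 alternatives, among them those without 12 h replicate 3 (2.55-fold, adjusted p = 0.0223) and without 72 h replicate 1 (adjusted p = 0.0491), while the rise from 12 h to 72 h, 2.23-fold, was (adjusted p = 0.022). The calls against sham held in the 25 alternatives fitted with limma at 3 and 12 h and in the 24 at 72 h, but the 72 h fold ranged from 8.72 with normexp background correction to 29.8 with slide as a block, and the 12 h fold fell to 4.10 with normexp. Within slide 2, where the 12 h group has 1 array, the fold from 12 h to 72 h was 3.46 and the call was lost (adjusted p = 0.175). That call was also lost with only the arrays of both groups fitted (2.23-fold, adjusted p = 0.0812), without 12 h replicate 2 (2.30-fold, adjusted p = 0.0556), without 12 h replicate 3 (1.79-fold) and without 72 h replicate 1 (1.94-fold).

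Tgfb1, the main TGF-β of wounds and the product of platelets and many leukocytes, was higher at 12 and 72 h. The brightest probe stood at -1.04, -1.47 and -0.94 in sham cecum, -1.22, -0.80 and -0.58 in the 3 h group, 0.03, 0.11 and 0.04 in the 12 h group, and 0.02, -0.12 and 0.08 in the 72 h group. The 3 h arrays overlapped with sham, while all 12 h and 72 h arrays lay above both. Tgfb1 was 2.31-fold higher than sham at 12 h (1.21 ± 0.18 SE, adjusted p = 0.00125) and 2.21-fold higher at 72 h (1.14 ± 0.18, adjusted p = 0.0021). The 12 h and 72 h arrays differed by -0.06 ± 0.18, with an adjusted p of 0.824. Against 3 h the folds were 1.90 at 12 h and 1.82 at 72 h, which became calls of 2.10-fold and 2.01-fold without 3 h replicate 3. The propeptide probe stood at -3.58, -3.63 and -3.57 in sham cecum, -2.71, -3.04 and -2.82 in the 3 h group, -2.32, -2.31 and -2.40 in the 12 h group, and -2.34, -2.48 and -2.34 in the 72 h group. On this probe the 3 h arrays did not overlap with sham, at 0.74 ± 0.11 (adjusted p = 0.00149), though the 1.67-fold difference was under the fold threshold. Its differences at 12 and 72 h were 1.25 ± 0.11 and 1.21 ± 0.11, and both were called (adjusted p = 5.8e-05 and 9.01e-05). With normexp the folds of the mature-part probe were 1.81 at 12 h and 1.77 at 72 h and neither was called, and the 72 h call was also lost with slide as a block (2.25-fold, adjusted p = 0.106) and without sham replicate 2 (1.98-fold).

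Tgfb2 and Tgfb3, the other TGF-β ligands, had lower values at 12 h than at 72 h. Tgfb2 stood at -0.03, -0.13 and -0.25 in sham cecum, -0.39, 0.01 and 0.39 in the 3 h group, -0.90, -1.05 and -0.81 in the 12 h group, and 0.82, 0.20 and -0.14 in the 72 h group. All 12 h arrays lay below every other array, and the 3 h and 72 h arrays overlapped with sham. The 12 h difference from sham was -0.78 ± 0.25 (adjusted p = 0.0495) and the 1.71-fold size was under the fold threshold. From 12 h to 72 h Tgfb2 rose 2.32-fold (1.21 ± 0.25, adjusted p = 0.00856), and its other probe rose 2.67-fold (1.42 ± 0.27, adjusted p = 0.00626). From 3 h to 12 h the difference of the brightest probe was -0.92 ± 0.25 (adjusted p = 0.0468), which became a call without 3 h replicate 1 (-1.12 ± 0.25). The other Tgfb2 probe gave -0.91 ± 0.27 for 12 h against 3 h (adjusted p = 0.0661). The call of the brightest probe from 12 h to 72 h was lost with normexp (1.88-fold), with slide as a block (2.14-fold, adjusted p = 0.136), within slide 2 (2.14-fold, adjusted p = 0.334) and without 72 h replicate 1 (1.93-fold).

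Tgfb3, with 1 probe, stood at 0.40, 0.21 and 0.71 in sham cecum, -0.60, -0.37 and -0.41 in the 3 h group, -0.60, -0.77 and -0.25 in the 12 h group, and 1.34, 1.21 and 0.73 in the 72 h group. The 3 h and 12 h arrays lay below every sham array, and the 72 h arrays lay above them. The differences from sham were -0.90, -0.99 and 0.65 (each ± 0.20) for 3, 12 and 72 h, with adjusted p of 0.0116, 0.00624 and 0.0453, all under the fold threshold. The 12 h difference lay at the edge of that threshold and was called lower in 6 of 25 alternatives, among them those without sham replicate 1, sham replicate 2 or 12 h replicate 3 (-1.01, -1.10 and -1.13). The 3 h difference was called lower in 2, of which 1 left out sham replicate 2 (-1.02). Tgfb3 rose 3.11-fold from 12 h to 72 h (1.64 ± 0.20, adjusted p = 0.000733) and 2.93-fold from 3 h to 72 h (1.55 ± 0.20, adjusted p = 0.000462). Within slide 2 the first was 2.54-fold with an adjusted p of 0.208, and with slide as a block the second was 2.17-fold with an adjusted p of 0.0905.

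**Figure D2:**
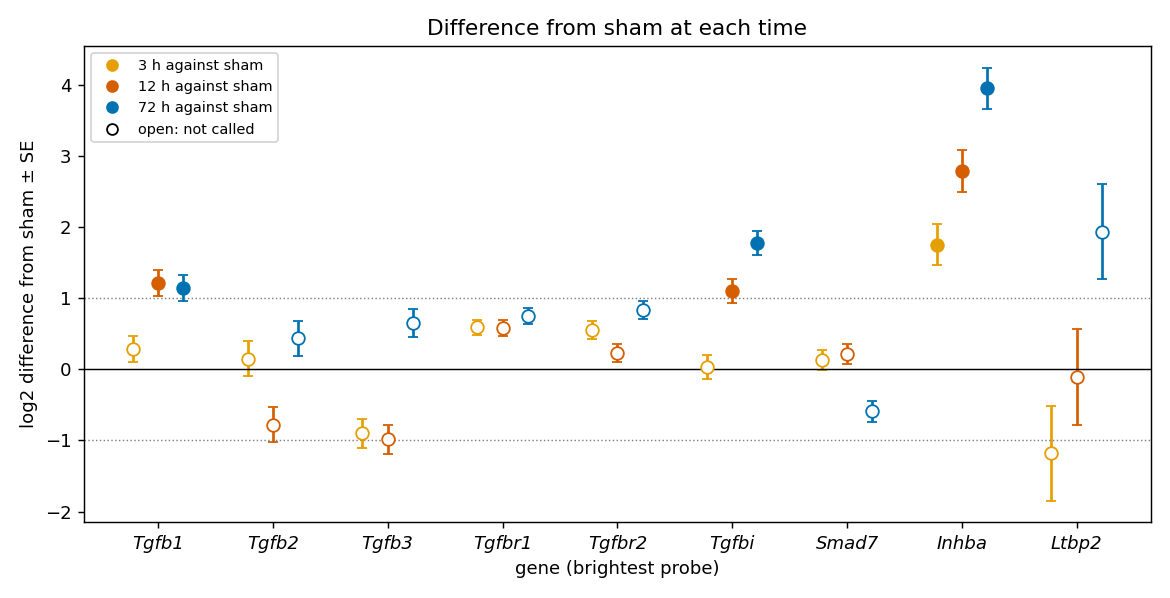
Log2 difference from sham of the brightest probe of each gene at 3, 12 and 72 h, with bars of 1 SE from the limma fit. Filled points were called, open points were not, and dotted lines mark a fold change of 2. The filled points are Inhba at 3 times and Tgfb1 and Tgfbi at 12 and 72 h.

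No difference of the receptors from sham reached the fold threshold. Tgfbr1, the type I kinase, stood at 0.48, 0.37 and 0.30 in sham cecum, 0.91, 0.96 and 1.04 in the 3 h group, 1.13, 0.93 and 0.82 in the 12 h group, and 1.19, 1.06 and 1.15 in the 72 h group. Every array after cauterization lay above every sham array. For 3, 12 and 72 h the differences from sham were 0.59, 0.58 and 0.75 (each ± 0.11), with adjusted p of 0.00484, 0.00433 and 0.00136 and folds of 1.5, 1.49 and 1.68. A dimmer Tgfbr1 probe gave 0.38 ± 0.14, 0.10 ± 0.14 and 0.50 ± 0.14, of which the 72 h value alone had an adjusted p below 0.05 (0.0306). The remaining 2 Tgfbr1 probes, drawn from other transcripts, were well above background on 4 and 0 arrays.

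Tgfbr2, the type II kinase that binds the ligand, stood at 3.73, 3.78 and 3.79 in sham cecum, 4.21, 4.23 and 4.50 in the 3 h group, 4.17, 3.86 and 3.95 in the 12 h group, and 4.74, 4.59 and 4.44 in the 72 h group. Every later array lay above every sham array, and the 12 h arrays lay below those of 3 h. The differences from sham were 0.55 ± 0.13 (1.46-fold, adjusted p = 0.0144), 0.23 ± 0.13 (1.17-fold, adjusted p = 0.258) and 0.83 ± 0.13 (1.77-fold, adjusted p = 0.00179).

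Tgfbi codes for a secreted matrix protein that was named for its induction by TGF-β. It stood at 3.41, 3.28 and 3.48 in sham cecum, 3.6, 3.43 and 3.24 in the 3 h group, 4.30, 4.33 and 4.85 in the 12 h group, and 5.21, 4.97 and 5.32 in the 72 h group. The 3 h arrays overlapped with sham, all 12 h arrays lay above both, and all 72 h arrays lay above those of 12 h. Tgfbi was 2.15-fold higher than sham at 12 h (1.1 ± 0.17, adjusted p = 0.00147) and 3.42-fold higher at 72 h (1.77 ± 0.17, adjusted p = 0.000136). Its 3 h difference was 0.03 ± 0.17. The rise from 3 h to 12 h was 2.10-fold (1.07 ± 0.17, adjusted p = 0.00588). Without 12 h replicate 3, the highest 12 h array and the one on slide 2, the 12 h difference was 1.90-fold from sham and 1.86-fold from 3 h and neither passed the fold threshold. With slide as a block and within slide 1, which take the 12 h values from the same arrays, both folds were the same and both calls were lost. The call from 3 h was also lost without 3 h replicate 3 (1.97-fold). The 72 h call against sham held in all 24 alternatives fitted with limma.

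Smad7, the inhibitory Smad that TGF-β induces to shut off its receptors, was lowest in the 72 h group. Its brightest probe stood at 2.24, 2.20 and 1.96 in sham cecum, 2.37, 2.01 and 2.40 in the 3 h group, 2.44, 2.32 and 2.27 in the 12 h group, and 1.38, 1.73 and 1.51 in the 72 h group. The 72 h arrays lay below every other array. The difference of 72 h from sham was -0.59 ± 0.14 (1.51-fold lower, adjusted p = 0.0169), and from 12 h it was -0.80 ± 0.14 (1.74-fold lower, adjusted p = 0.00471), both under the fold threshold. On a dimmer probe the 72 h arrays were 2.05-fold lower than those of 3 h (-1.04 ± 0.19, adjusted p = 0.00312), which was the only call of a lower level among the 16 probes in the 6 comparisons. Over all probes, 5.22% were called lower in that comparison. On that probe the difference from sham at 72 h was -0.74 ± 0.19 (adjusted p = 0.0235).

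Ltbp2 codes for an extracellular microfibril protein of the latent TGF-β binding protein family, which unlike its relatives does not bind the latent ligand. It stood at 0.09, -0.62 and 0.20 in sham cecum, -3.11, -0.83 and 0.08 in the 3 h group, 0.00, -0.73 and 0.07 in the 12 h group, and 2.37, 1.68 and 1.42 in the 72 h group. The 72 h arrays lay above every other array, and 3 h replicate 1 lay far below the rest. The 72 h difference from sham was 3.82-fold (1.93 ± 0.67) with an adjusted p of 0.0693 and was not called. Since all groups share an estimate of the spread, leaving out 3 h replicate 1 lowered the SE to 0.36 and gave an adjusted p of 0.00656 for the same fold, and leaving out 3 h replicate 3 gave 0.0351. In all, 7 of 24 alternatives called this difference. The 8.64-fold rise from 3 h to 72 h was called (3.11 ± 0.67, adjusted p = 0.00642), but it was 4.59-fold without 3 h replicate 1 and 13.9-fold without 3 h replicate 3, and with slide as a block it was 6.38-fold with an adjusted p of 0.213. The second Ltbp2 probe was well above background on 0 arrays.

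Comparing the times with each other, 1 of the 9 genes was called higher at 12 h than at 3 h (Tgfbi), 3 at 72 h than at 12 h (Tgfb2, Tgfb3 and Inhba) and 4 at 72 h than at 3 h (Tgfb3, Tgfbi, Inhba and Ltbp2). Over all genes 1.89%, 4.33% and 6.19% were called higher in these comparisons, and 1.56%, 3.19% and 5.51% lower. No member was called lower by its brightest probe in any of them. These comparisons share arrays with those against sham.

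**Figure D3:**
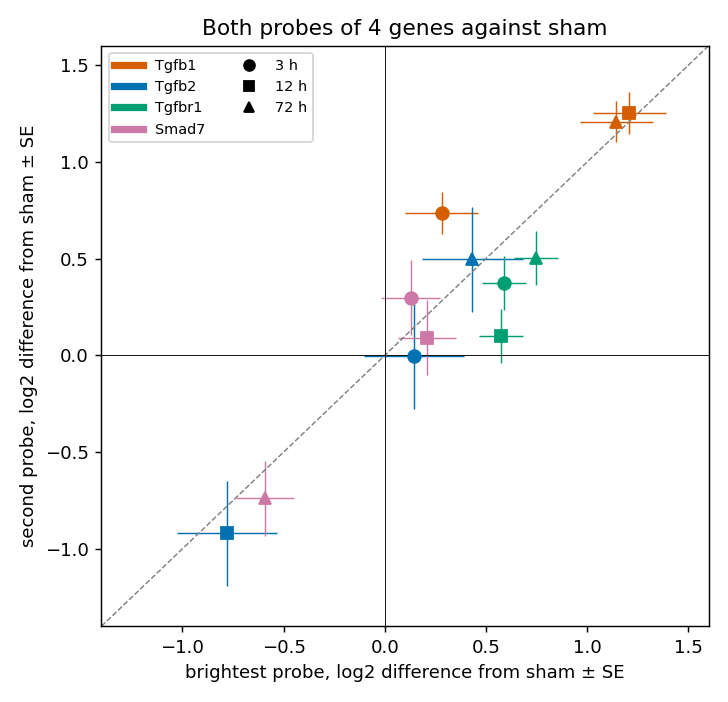
Log2 difference from sham on the brightest probe (horizontal) and on the second probe (vertical) of Tgfb1, Tgfb2, Tgfbr1 and Smad7, with bars of 1 SE and a dashed line where both are equal. The widest gaps from the line are Tgfb1 at 3 h (0.28 and 0.74) and Tgfbr1 at 12 h (0.58 and 0.10).

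A set of 250-base windows upstream of the RefSeq start (GRCm38.p6) was found for 7 of the 9 members, 8 windows in all. They are shown for the 3 genes called higher at both 12 and 72 h, of which Inhba was also called at 3 h. Capitals mark any of 4 motifs on either strand, namely the Smad box CAGAC, the AP-1 motif TGANTCA, the GC box GGGCGG and the TATA box TATAAA, which did not overlap in these windows (GTCTG and CCGCCC are the Smad and GC boxes of the other strand).
Inhba, chr13:16011601-16011850 (plus strand): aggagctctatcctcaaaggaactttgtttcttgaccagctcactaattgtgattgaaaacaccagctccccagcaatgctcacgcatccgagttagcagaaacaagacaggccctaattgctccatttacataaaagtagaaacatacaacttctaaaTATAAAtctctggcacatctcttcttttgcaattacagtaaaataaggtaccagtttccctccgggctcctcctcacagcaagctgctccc
Tgfb1, chr7:25686752-25687001 (plus strand): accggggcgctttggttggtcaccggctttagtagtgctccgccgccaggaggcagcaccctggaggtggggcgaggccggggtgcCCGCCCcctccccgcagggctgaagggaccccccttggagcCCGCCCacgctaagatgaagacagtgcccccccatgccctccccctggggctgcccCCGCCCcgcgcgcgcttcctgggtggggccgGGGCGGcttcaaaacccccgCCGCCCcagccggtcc
Tgfbi, chr13:56609336-56609585 (plus strand): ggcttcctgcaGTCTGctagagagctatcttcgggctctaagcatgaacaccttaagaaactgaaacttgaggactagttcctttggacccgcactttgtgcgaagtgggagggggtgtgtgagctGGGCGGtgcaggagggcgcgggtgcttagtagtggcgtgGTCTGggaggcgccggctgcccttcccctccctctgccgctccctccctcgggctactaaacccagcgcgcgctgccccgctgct
The Tgfb1 window held 5 GC boxes, the Inhba window 1 TATA box, and the Tgfbi window 2 Smad boxes and 1 GC box. Of 32851 windows of this length, 42.2% held the Smad box, 32.7% the GC box, 12.4% the TATA box and 6.75% the AP-1 motif. The AP-1 motif was in 0 of the 8 member windows, which says only that its letters are not there.

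Another 93 genes of the pathway were followed in 6 lists. The numbers called higher and lower than sham were 15 and 4 for 3 h, 14 and 12 for 12 h, and 31 and 3 for 72 h. The genes called higher made up 16.1%, 15.1% and 33.3% of the 93, beside 3.26%, 4.1% and 4.55% of all genes. Those called lower made up 4.3%, 12.9% and 3.23%, beside 4.11%, 4.96% and 4.3% of all genes. The same shares of all genes stand beside the counts of each list below. The median difference of the 93 was 0.08, -0.03 and 0.49 at the 3 times, beside 0.08, -0.01 and -0.14 over all genes. With slide as a block 17 rather than 31 were called higher at 72 h.

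Of 18 genes that hold the ligand latent or free it, the numbers called higher and lower were 4 and 0 for 3 h, 3 and 1 for 12 h, and 8 and 0 for 72 h. Thbs1, the thrombospondin that releases active TGF-β, was 13.7-fold, 24.0-fold and 10.8-fold higher at 3, 12 and 72 h (adjusted p = 0.000191, 4.24e-05 and 0.000297). Mmp9, a gelatinase of neutrophils and macrophages, was 10.4-fold higher at 12 h and 12.7-fold at 72 h (adjusted p = 1.88e-05 and 1.74e-05). Itgb8, a chain of a TGF-β activating integrin, was 4.68-fold higher at 72 h (adjusted p = 0.00574), from a mean of -4.07 in sham. The dimmest signals that passed as above background on the sham arrays were -5.08 to -4.93. Itgb6, another integrin chain of this list, was called 3.07-fold higher at 3 h and 3.62-fold at 12 h. At 72 h Itgb6 stood at 0.07 ± 0.15 from sham, not called. Mmp14, a membrane protease, was 4.37-fold higher at 72 h (adjusted p = 4.9e-05). Ltbp3, a latent TGF-β binding protein, was called lower at 12 h at -1.63 ± 0.24 (adjusted p = 0.00117), and stood at 0.45 ± 0.24 from sham at 72 h.

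Of 10 activin ligands and antagonists, 2 were called higher at each time, 1 lower at 3 h and at 12 h, and 0 lower at 72 h. Inhbb, another activin subunit, was 8.83-fold, 5.26-fold and 6.44-fold higher at 3, 12 and 72 h (adjusted p = 0.000191, 0.000558 and 0.000418). Gdf15, a stress-induced relative of the ligands, was 4.02-fold higher at 3 h and 2.28-fold at 12 h and stood at -0.28 ± 0.29 at 72 h. Fst codes for follistatin, which traps activin, and was called lower at 12 h at -1.53 ± 0.37 (adjusted p = 0.0146). At 72 h it stood at -0.62 ± 0.37, not called. Fstl3, another antagonist of this list, went the other way. It stood at 0.66 ± 0.14 at 12 h, not called, and was 2.18-fold higher at 72 h (adjusted p = 0.000608). Inha, the subunit that turns activin into inhibin, was called lower at 3 h (adjusted p = 0.00475), but it was not well above background on any 3 h array, so its fold is a bound, with sham at least 1.56-fold higher, taken against the dimmest signal that passed as above background on each array.

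Of 10 receptors and co-receptors, 0 were called higher at 3 and 12 h and 1 at 72 h, while 1, 2 and 0 were called lower. The shares over all genes were 3.26%, 4.1% and 4.55% higher and 4.11%, 4.96% and 4.3% lower. Acvr1c, the type I receptor ALK7, was lower at 3 h (-1.80 ± 0.35, adjusted p = 0.00595) and at 12 h (-1.44 ± 0.35, adjusted p = 0.015). Acvr2b, a type II receptor of activin, was lower at 12 h (-1.08 ± 0.14, adjusted p = 0.00049). Eng, the endothelial co-receptor endoglin, was 2.25-fold higher at 72 h (adjusted p = 0.00455).

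Of 19 Smads and their regulators, the numbers called higher and lower were 1 and 1 for 3 h, 1 and 2 for 12 h, and 3 and 2 for 72 h. Beside them, 3.26%, 4.1% and 4.55% of all genes were called higher, and 4.11%, 4.96% and 4.3% lower. Smad3, the transcription factor of the pathway, was 2.27-fold higher at 3 h and 2.39-fold at 12 h (adjusted p = 0.000973 and 0.000491) and stood at 0.45 ± 0.16 at 72 h. Pmepa1, a TGF-β-induced feedback inhibitor, was 3.31-fold higher at 72 h (adjusted p = 1.83e-05), and Tgif2, a Smad co-repressor, was 2.24-fold higher (adjusted p = 0.00254). Smad9, a Smad of bone morphogenetic protein signaling, was lower at all 3 times (-1.80, -2.0 and -1.14, each ± 0.24). It was well above background on only 2 of 3 arrays at 3 h and at 12 h, so those sizes were taken close to background. Zfyve9, the adaptor SARA that presents Smads to the receptor, was lower at 12 h (-1.07 ± 0.17) and 72 h (-1.11 ± 0.17). With normexp the 72 h calls of Smad9 and Zfyve9 were lost.

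Of 31 genes known to be induced by TGF-β, the numbers called higher and lower were 7 and 1 for 3 h, 8 and 6 for 12 h, and 17 and 1 for 72 h, with medians of 0.07, -0.25 and 1.61. Il11, a fibrogenic cytokine, was 24.9-fold, 31.5-fold and 39.4-fold higher at 3, 12 and 72 h. Timp1, a metalloprotease inhibitor, was 9.09-fold, 20.7-fold and 77.2-fold higher.

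Of the 4 collagens of this list, 3 were called lower at 12 h and all 4 higher at 72 h. Col1a1 stood at -1.63 ± 0.26 from sham at 12 h and at 3.0 ± 0.26 at 72 h, and both were called (adjusted p = 0.00179 and 7.71e-05). Col1a2 stood at -1.83 ± 0.29 and 2.02 ± 0.29, and Col3a1 at -1.21 ± 0.28 and 2.08 ± 0.28, also called at both times. Col5a1 stood at -1.02 ± 0.34 at 12 h, which was not called (adjusted p = 0.0624), and at 2.51 ± 0.34 at 72 h (adjusted p = 0.001). Lox, the collagen cross-linking enzyme, was 2.77-fold higher at 12 h and 57.5-fold at 72 h (adjusted p = 0.0211 and 1.74e-05). Comp, a cartilage matrix protein, was lower at 12 h (-1.57 ± 0.30).

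The contractile genes of this list were called lower at 12 h and none was called higher at 72 h. Acta2, smooth muscle actin and the usual marker of myofibroblasts, was lower at 12 h (-1.52 ± 0.21, adjusted p = 0.000786) and stood at -1.0 ± 0.21 at 72 h, just short of the fold threshold. Tagln, another smooth muscle gene, was lower at 12 h (-1.48 ± 0.18) and at 72 h (-1.05 ± 0.18), where the call was lost with normexp. The markers of smooth muscle described below, Myh11, Des, Actg2, Cnn1, Smtn and Synm, fell beside them. Cdkn2b, a cell cycle inhibitor, was lower at 3 h (-1.50 ± 0.13, adjusted p = 0.000112).

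Of 5 genes known to be repressed by TGF-β, 1 was called higher at 3 h and none at 12 or 72 h. It was Myc, the growth regulator, at 3.70-fold (adjusted p = 7.88e-05).

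**Figure D4:**
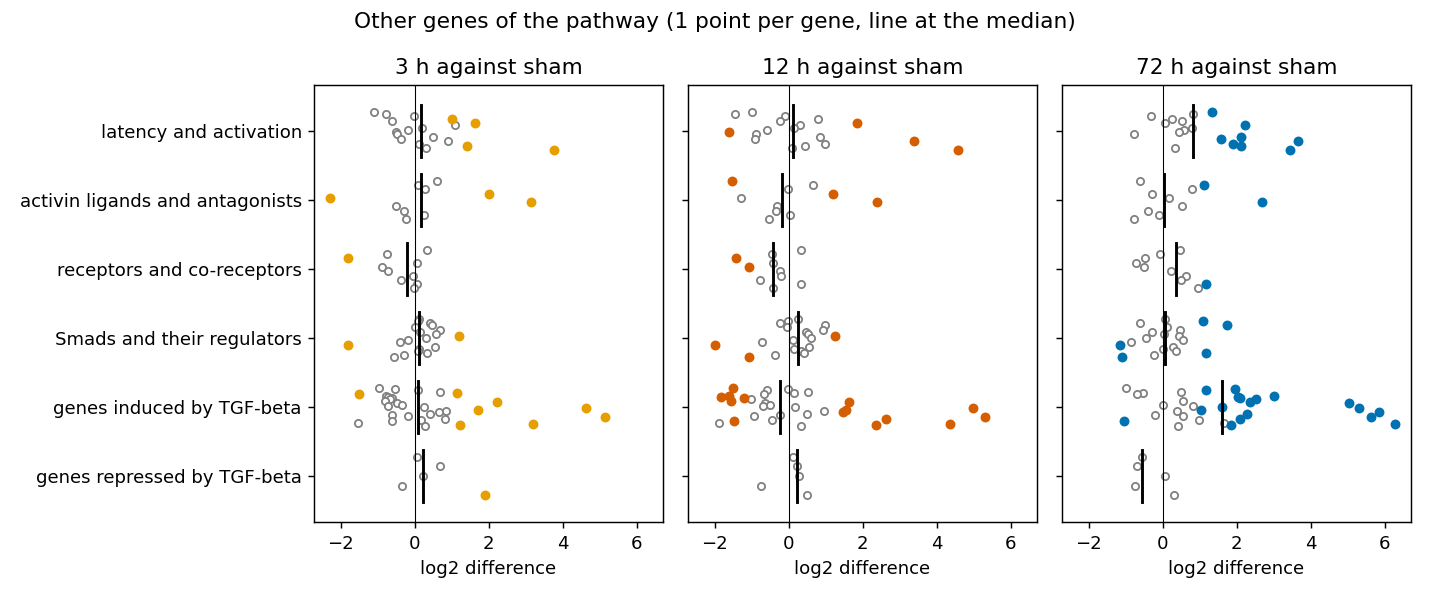
Log2 difference from sham of the 93 other genes of the pathway at 3, 12 and 72 h, by list, with 1 point per gene, filled where called, and a line at the median of the list. The genes induced by TGF-β lie on both sides of 0 at 12 h, with 8 called higher and 6 lower, and mostly above it at 72 h, with 17 and 1.

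Markers of other cell types moved alongside these genes. Beside the counts of their calls, 3.26%, 4.1% and 4.55% of all genes were called higher at 3, 12 and 72 h. Called lower were 4.11%, 4.96% and 4.3% of all genes. In bulk tissue, fewer cells of a type and less RNA per cell cannot be told apart. A sum weights each marker by the brightness of its probe and follows the brightest ones. Shares of a sum describe that sum and not amounts of RNA. The summed intensity of 12 neutrophil markers was 5.47, 9.46 and 5.37 times its sham mean at 3, 12 and 72 h (arrays from 4.06 to 6.76, 9.28 to 9.72 and 3.94 to 7.18), with 7, 9 and 7 of 12 called higher. Csf3r made up 93.3% of this sum in sham, and S100a9 58.2% to 61.7% at the later times. Of the neutrophil markers, Cxcr2, Ngp and Ltf were well above background on 0 of the sham arrays. The 6 platelet markers summed to 3.87, 3.70 and 5.94 times sham, with 3, 2 and 2 called higher, but Pf4 alone made up 94.6% to 97.0% of this sum. Ppbp, Itga2b and Gp9 were at background on the sham arrays, and Gp1bb and Gp6 stood at 0.27 ± 0.29 and -0.01 ± 0.26 from sham at 72 h, not called. The part of the neutrophil and platelet markers in the Tgfb1 difference was not tested.

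Macrophage markers, 10 in number, summed to 0.835, 1.11 and 2.02 times sham at 3, 12 and 72 h, with arrays from 1.98 to 2.05 times at 72 h, and 1, 3 and 8 were called higher and 1, 1 and 0 lower. Arg1, of this list, was at background on the sham arrays. The 8 fibroblast markers summed to 0.842, 0.879 and 2.24 times sham (1.75 to 2.88 at 72 h), with 0, 0 and 4 called higher and 0, 3 and 0 lower. These sums were highest at the time when Tgfbi, Inhba, Ltbp2, Tgfb3 and the collagens were highest, and their part in those results was not tested.

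The 6 smooth muscle markers summed to 0.584, 0.373 and 0.290 times sham, with 2, 6 and 6 of 6 called lower. The 9 epithelial markers summed to 1.20, 0.993 and 0.591 times sham, with 0, 0 and 2 called lower. The 8 mesothelial markers summed to 1.40, 1.04 and 0.785 times sham, with 1, 1 and 3 called higher and 3, 3 and 0 lower, and 86.3% to 97.7% of this sum was Krt19, a keratin that epithelium also makes. Upk3b and Lrrn4, which mark the lining of the serosa, were at background on all 3 h and 12 h arrays. At 72 h they stood at 0.02 ± 0.43 and 0.88 ± 0.53 from sham, not called. Gpm6a was called lower at 3 h (-1.54 ± 0.31) and 12 h (-2.44 ± 0.31). Pdpn was called higher at 3, 12 and 72 h (3.32-fold, 4.99-fold and 5.99-fold), and Wt1 (21.1-fold) and Upk1b (3.43-fold) at 72 h. The 6 endothelial markers summed to 0.713, 0.687 and 1.36 times sham, with 0, 0 and 1 called higher and 1, 1 and 0 lower. The smooth muscle sum was lowest at 72 h, when Tgfb1, Tgfbi and Inhba were above sham, and its part in these results was not tested.

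**Figure D5:**
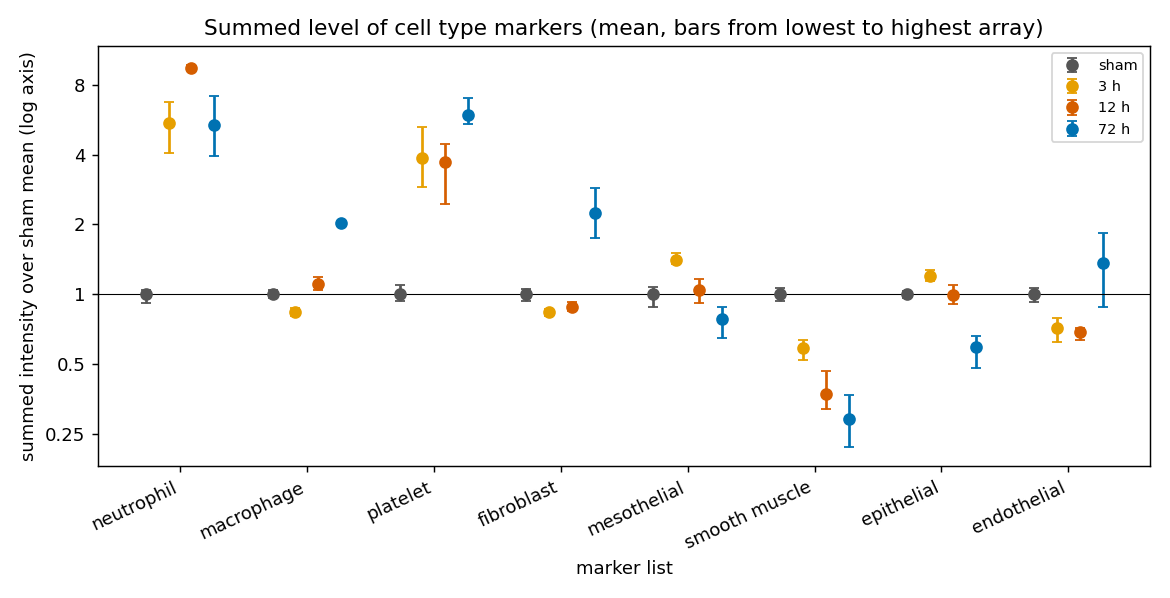
Summed intensity of each marker list over its sham mean, on a log axis, with the mean of 3 arrays and bars from the lowest to the highest array. Neutrophil markers were highest at 12 h, macrophage and fibroblast markers at 72 h, and smooth muscle markers lay below sham at 3, 12 and 72 h.

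The genes nearest to each member in pattern were sought among 15840 genes well above background on 12 of 12 arrays, by the root mean square gap between their 3 differences from sham, over the same arrays. Nearest to Tgfb1 after the gene model Gm11110 (0.03) was Cxcr4, a chemokine receptor of leukocytes (0.04). Nearest to Tgfbi were Gngt2, a G protein subunit (0.05), and Mpeg1, a pore-forming protein of macrophages (0.08). Inhba had no gene as near, with Chrdl2, a secreted antagonist of bone morphogenetic proteins, at 0.16 and Ctla2a at 0.36. Nearest to Ltbp2 were Tbxas1, thromboxane synthase (0.09), and Loxl1, an elastin cross-linking enzyme (0.18). The Ltbp2 pattern rests in part on 3 h replicate 1, with a 3 h difference of -1.18 ± 0.67. The 2 genes nearest to Tgfb3 were Zfp185 (0.05) and Sncg (0.09). For Tgfb2 they were Prima1 (0.09) and Tenm3 (0.11), for Tgfbr1 Serpinb6d (0.04) and Zxdc (0.05), for Tgfbr2 Dusp7 (0.08) and Jag1 (0.09), and for Smad7 Gsr and Trpa1 (both 0.02). With 3 differences per gene and so many candidates, a near match is a description of these arrays.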

How the data were processed

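The authors deposited the Feature Extraction output of each array, with a background-corrected spot intensity on a linear scale and spot flags, and a log2 table that GeneSpring had scaled to each array's 75th percentile, which the values show to be centered on each row's median. From the intensity, log2 was taken, and each array's 75th percentile over its non-control probes was subtracted. Outlier spots (53 to 152 per array) and 3671 control spots were left out, and spots of a probe averaged. These values correlated at 0.99997 with the deposited log2 table after centering.

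Group means over all 12 arrays were fitted by lmFit, contrasts.fit and eBayes of limma 3.58.1 (R 4.3.3), and p-values adjusted by the Benjamini-Hochberg method over 56605 probes within each of 6 comparisons. The members, lists and tests were chosen with earlier results of these data known. Some markers and list genes were named for comparison only. Beyond these and the members, a rule named the 4 largest called changes per list and genes called against their list. It also named markers at background, sex-linked genes and the 2 nearest patterns per member. A gene of the lists that this rule names is counted but not reported here. Probe coordinates are those of mm9, and probes were not placed in exons, since no annotation of that build was used. The fits were tested on simulated data. Precision is limited by 3 arrays per group.

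Alternatives were quantile normalization, the percentile over probes above background, normexp, the deposited log2 table, and dim probes filtered out or raised to a floor. Others were outliers retained, blocks for the slide and for the replicate number, values within slide, and eBayes with trend and robust. The rest were pairs of groups alone, the mean of all probes, no fold threshold and leaving out each array. The paired t-test that the methods name for pairs of groups was also run.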

Additional observations from a re-analysis of the deposited data

Results flagged for a closer look

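Differences from sham that were themselves different between times, by the limma contrast of both times, are listed here as values. Inhba was higher at 72 h than at 3 h by 2.20 on the log2 scale (± 0.29 SE, adjusted p = 0.000536) and than at 12 h by 1.16 (± 0.29, adjusted p = 0.022). Ltbp2 was higher at 72 h than at 3 h by 3.11 (± 0.67, adjusted p = 0.00642), which rests in part on 3 h replicate 1. Tgfb3 was higher at 72 h than at 12 h by 1.64 (± 0.20, adjusted p = 0.000733) and than at 3 h by 1.55 (± 0.20, adjusted p = 0.000462). Tgfb2 was higher at 72 h than at 12 h by 1.21 (± 0.25, adjusted p = 0.00856). Tgfbi was higher at 12 h than at 3 h by 1.07 (± 0.17, adjusted p = 0.00588) and at 72 h than at 3 h by 1.74 (± 0.17, adjusted p = 0.000126).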

How the results depend on the processing

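Among results that did not keep their count were those of the t-test that the paper names for pairs of groups. The paper names no test for the arrays. Paired by replicate number and adjusted, this t-test called 0 members in the 6 comparisons and 0 other pathway genes in the 3 against sham. With 3 arrays per group, such a t-test has little power after adjustment over 56605 probes. Unadjusted, it called 1, 3 and 4 members higher at 3, 12 and 72 h against sham and 1, 3 and 3 for 12 h against 3 h, 72 h against 12 h and 72 h against 3 h, with 0 lower. It called 15, 12 and 28 other genes higher against sham and 6, 14 and 2 lower. With no fold threshold, 3 members were higher and 1 lower at 3 h, 2 lower at 12 h, 6 higher and 1 lower at 72 h, 2 higher and 1 lower from 3 h to 12 h, 5 and 1 from 12 h to 72 h, and 1 lower from 3 h to 72 h. Other genes were then 25 higher and 12 lower at 3 h, 27 and 23 at 12 h, and 16 lower at 72 h.

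Scaling over probes above background called 1 member lower at 3 h, 1 lower at 12 h and 2 higher from 3 h to 12 h. A count of 2 in that last comparison also came from the filter, the floor, the replicate block and eBayes with trend and robust. Slide as a block called 1 member lower at 12 h, 2 higher from 3 h to 72 h and 17 other genes higher at 72 h. Within slide, 1 member was lower at 12 h and 0 were higher from 12 h to 72 h, where 12 h had 1 array. Normexp called 2, 6 and 0 other genes lower at 3, 12 and 72 h, and the mean of all probes called 7 lower at 3 h.

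Leaving out each array in turn gave 1 to 1 members higher at 3 h, 2 to 3 at 12 h, 2 to 4 at 72 h, 1 to 2 from 3 h to 12 h, 1 to 4 from 12 h to 72 h and 4 to 5 from 3 h to 72 h. Members lower ranged from 0 to 1 at 3 h, at 12 h and from 3 h to 12 h, and were 0 otherwise. Other genes ranged from 14 to 16 higher and 4 to 6 lower at 3 h, 13 to 15 and 10 to 15 at 12 h, and 26 to 35 and 1 to 4 at 72 h. No member reversed its direction across the threshold in any alternative, and quantile normalization, the deposited log2 table and kept outlier spots moved no count by over 1.5 times.

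No clear pairing of the arrays by replicate number was seen in their deviations from the group means. With 3 arrays per group, this check cannot exclude a pairing. Of 18 same-numbered pairs 6 correlated above 0.1 (-0.40 to 0.26), and 2 of 12 arrays correlated best with their own number. With the replicate block Inhba was called from 3 h to 12 h (adjusted p = 0.0416). The median difference over all probes was -0.15 at 72 h against sham and -0.24 at 72 h against 3 h. This shift was not subtracted from the values.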
